A study of Mus musculus with 14 samples.

Results

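Genes that respond to glucocorticoids, their receptor and the metallothioneins were compared between 2310061I04Rik-null (Rik null) and wild-type (WT) mouse brains at postnatal day 23 (P23). These were 10 genes chosen by symbol out of the 56748 genes of the table, namely Sgk1, Fkbp5, Plin4, Tsc22d3, Zbtb16, Errfi1, Hif3a, Nr3c1, Mt1 and Mt2. RNA was taken from 1 sagittal side of the brain of each of 7 Rik null mice (4 labelled female and 3 labelled male) and 7 WT mice (3 labelled female and 4 labelled male), all of strain C57BL6/J. Rik null mice are homozygous in every tissue for a spontaneous deletion in the first intron of 2310061I04Rik, and according to the study they lose weight in their last weeks, become ataxic and die near this age. The allele was backcrossed away from a linked Traf7 modification. Per the study's methods the WT mice were littermates, and all mice were killed with CO2 just before collection.

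Glucocorticoids, corticosterone in the mouse, are released by the adrenal gland under the control of hypothalamic Crh and pituitary Pomc peptides. They bind the glucocorticoid receptor, encoded by Nr3c1 and held ready for hormone by Hsp90 chaperones, and the receptor then binds response elements in DNA and changes transcription. Metallothioneins are small cysteine-rich proteins that bind zinc and copper. In the mouse Mt1 and Mt2 are induced by metals through the transcription factor Mtf1 and by glucocorticoids.

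The libraries held between 14.7 and 17.9 M counts in Rik null and between 14.7 and 17.0 M counts in WT brains. Rik itself had 1.03 to 3.37 CPM (counts per M of scaled library size) in Rik null against 30.3 to 40.9 CPM in WT libraries, so all 14 matched their genotype label. Sex labels were matched by 13 of 14, since the library labelled male Rik null 4 had 448 CPM of the female-specific RNA Xist and 0 counts of the Y-linked genes Ddx3y, Eif2s3y, Kdm5d and Uty. Results by sex are therefore given with and without it. Rik null 1 stood apart on the first principal component (at -54.5, where the remaining 6 Rik null libraries lay between -23.8 and -22.0), and WT 4 held 412 CPM of summed pituitary markers, with 6.31 to 25.5 CPM in the remaining WT libraries. Summed marker levels of myelinating oligodendrocytes (12284 to 15073 CPM in Rik null, 16905 to 21192 CPM in WT), astrocytes (3755 to 4484 and 4925 to 6082 CPM) and microglia (171 to 228 and 251 to 345 CPM) did not overlap between genotypes. At an adjusted p of 0.05 (edgeR), 6, 4 and 5 of 6 markers were lower in Rik null brains, against 17.9% of all genes tested. Of the other lists, 2 of 6 neuronal, 2 of 5 pericyte and smooth muscle, 4 of 6 choroid plexus, 2 of 3 pituitary and 5 of 6 blood markers were lower. Only 1 of 6 endothelial markers was higher, against 16.5% of all genes tested. The 2 pituitary markers were Gh and Pomc, and the call of Pomc was lost without WT 4 (log2 fold change -0.45, adjusted p = 0.340, edgeR). Gh had means of 0.98 CPM in Rik null and 19.3 CPM in WT, and its libraries overlapped. Whether its call also rests on WT 4 was not examined. Summed blood markers were at 222 to 387 CPM in Rik null and 379 to 781 CPM in WT, endothelial markers at 199 to 233 and 163 to 216 CPM, and mitochondrial genes took 3.62 to 4.52% and 5.77 to 7.87% of counts. Their part in the results that follow was not tested, and in bulk tissue fewer cells of a type and less RNA per cell cannot be told apart.

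Of the 10 genes, 9 had enough counts to be tested, and 7 of these passed an adjusted p of 0.05 with a higher level in Rik null brains (edgeR quasi-likelihood test, Benjamini-Hochberg over 16882 genes), against 16.5% of all genes tested. None was lower, against 17.9% of all genes. At least a 2-fold increase was seen for Sgk1, Fkbp5, Plin4 and Hif3a, against 1.91% of all genes. In Sgk1, Fkbp5, Plin4 and Zbtb16 every Rik null library lay above every WT library, which was so for 5.38% of all genes. The median log2 fold change of the 9 genes was 0.69, against 0.00 over all genes tested. The genes were chosen with earlier results of these data known, so these shares are a description. The receptor gene Nr3c1 and the leucine zipper gene Tsc22d3 were the exceptions among the tested genes, and Mt2 was too low to test.

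**Figure D1:**
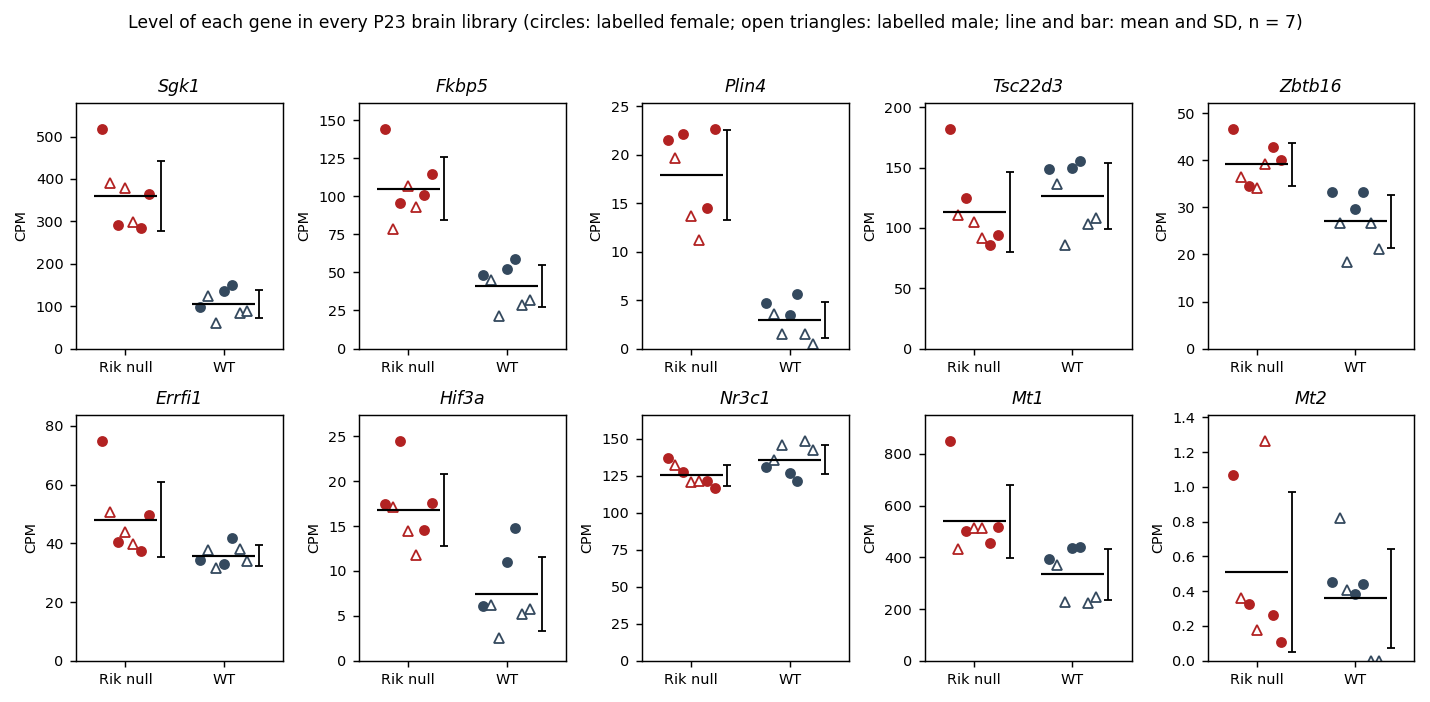
Level of each of the 10 genes, in CPM on a linear axis from 0, in the 7 Rik null and 7 WT libraries, with labelled females as circles and labelled males as open triangles. The line and bar are the mean and SD of 7 libraries. Sgk1, Fkbp5, Plin4 and Zbtb16 do not overlap between genotypes, and Rik null 1 is the leftmost Rik null point of each panel.

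Sgk1 encodes a serum- and glucocorticoid-regulated kinase that acts on ion channels and transporters. Its level in Rik null libraries was 283 CPM at the lowest, 365 CPM at the median and 518 CPM at the highest, against 59.4, 98.0 and 149 CPM in WT libraries. The lowest Rik null library was thus well above the highest WT library, and the means differed 3.42-fold (360 ± 82.4 CPM in Rik null and 105 ± 32.2 CPM in WT, SD, n = 7 libraries each). The log2 fold change was 1.78 with an SE of 0.17 (adjusted p = 8.91e-08, edgeR). Sgk1 (chr10:21882184-21999903, plus strand, GRCm38) has 6 promoter windows in RefSeq (GRCm38.p6, each from 250 bases before to 50 after an annotated start). Only the fifth, at chr10:21993640-21993939, held a full glucocorticoid response element, searched as GNACA, any 3 bases and TGTNC, which is shown in capitals because it is the type of site the receptor is known to bind.
Sgk1 promoter 5: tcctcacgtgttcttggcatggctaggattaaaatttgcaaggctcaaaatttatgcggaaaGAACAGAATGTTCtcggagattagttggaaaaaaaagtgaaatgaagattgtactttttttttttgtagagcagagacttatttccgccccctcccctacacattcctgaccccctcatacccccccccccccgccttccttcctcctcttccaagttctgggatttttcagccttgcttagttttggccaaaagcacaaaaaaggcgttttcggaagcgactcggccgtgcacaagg
The match starts at base -188 from the annotated start. Such a match, searched on both strands, was held by 0.475% of 32851 RefSeq promoters. Of the 8 genes with a window in the table (Zbtb16 and Nr3c1 were not matched), Sgk1 held it in 1 of 6 windows and Mt1 in its only window. The share of 0.475% counts promoters and not genes, so the 2 cannot be compared directly. Whether the receptor was bound there was not measured.

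Fkbp5, a co-chaperone of Hsp90 that lowers the hormone affinity of the receptor, had 78.7, 101 and 144 CPM (lowest, median, highest) in Rik null and 21.6, 45.2 and 58.7 CPM in WT libraries. The genotypes did not overlap (log2 fold change 1.36, SE 0.17, adjusted p = 4.22e-06, edgeR). Plin4, a perilipin that coats lipid droplets, had the largest fold change of the 9, with 11.3, 19.7 and 22.7 CPM in Rik null and 0.478, 3.42 and 5.59 CPM in WT libraries. The log2 fold change of 2.59 (SE 0.30, adjusted p = 1.46e-06, edgeR) separated the genotypes without overlap, although WT libraries themselves varied widely and WT 7 was the lowest. Plin4 (chr17:56100591-56109803, minus strand) overlaps Hdgfl2 on the other strand, and whether counting used strand is not given. Hdgfl2 was higher by 0.39 (SE 0.07, adjusted p = 0.000405, edgeR), at 55.1 to 63.7 CPM in Rik null and 37.3 to 55.0 CPM in WT. Single reads of Hdgfl2 within Plin4 cannot be told apart from those of Plin4, and their part was not tested. In WT 7, Plin4 had only 7 counts (0.478 CPM) while Hdgfl2 was at 45.6 CPM. Fkbp5 (chr17:28399094-28517527) and Plin4 lie on the chromosome of Rik, 7.38 and 20.2 Mb away. Of genes on the other strand, Gm22146 in Fkbp5, 4833404L02Rik in Hif3a and 1700045H11Rik in Errfi1 had at most 10, 5 and 2 counts in any library. Fkbp5 also overlaps AC154912.1 on the other strand and AC154912.3 and AC154912.5 on its own. These were not found by name among the counted genes, so the level of Fkbp5 is uncertain to that extent.

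Zbtb16 (chr9:48654297-48836222, minus strand), a zinc finger transcriptional repressor, and Hif3a (chr7:17031507-17062427, minus strand), a member of the hypoxia-inducible factor family, were also higher. Zbtb16 had 34.3, 39.3 and 46.7 CPM in Rik null and 18.5, 26.7 and 33.4 CPM in WT libraries (log2 fold change 0.54, SE 0.11, adjusted p = 0.00107, edgeR). Its genotypes did not overlap, but the gap between them was under 1 CPM. Hif3a had 11.8, 17.1 and 24.5 CPM in Rik null and 2.52, 6.11 and 14.8 CPM in WT libraries (log2 fold change 1.18, SE 0.25, adjusted p = 0.00102). Here the genotypes overlapped, since WT 5 lay above 3 of the Rik null libraries. Errfi1 (chr4:150853919-150868892, plus strand), a feedback inhibitor of the epidermal growth factor receptor, had the smallest change of the 7 higher genes, with 37.6, 44.0 and 74.8 CPM in Rik null and 31.7, 34.4 and 41.7 CPM in WT libraries. Its log2 fold change of 0.43 (SE 0.12, adjusted p = 0.00903, edgeR) was 0.29 without Rik null 1, the highest library, and 0.27 (Errfi1 adjusted p = 0.0254) without Rik null 1 and WT 4.

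Tsc22d3 (chrX:140539528-140600659, minus strand), which encodes the glucocorticoid-induced leucine zipper and is often read as a marker of hormone action, did not pass the test. Its level was 85.5, 105 and 182 CPM in Rik null and 85.6, 136 and 155 CPM in WT libraries (log2 fold change -0.16, SE 0.15, adjusted p = 0.431, edgeR). The ranges began at almost the same level, and 6 of 7 Rik null libraries lay below the WT median. Rik null 1 alone lay above every WT library, and without it the log2 fold change was -0.31 (adjusted p = 0.0560). Nr3c1 (chr18:39410545-39519421, minus strand), the receptor gene, had 116, 121 and 137 CPM in Rik null and 122, 136 and 148 CPM in WT libraries (log2 fold change -0.12, SE 0.06, adjusted p = 0.118). The libraries overlapped, and Nr3c1 passed only when Rik null 1 and WT 4 were both left out (log2 fold change -0.16, adjusted p = 0.0431).

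Of the metallothioneins, Mt1 was higher in Rik null brains, Mt2 was barely counted, and the brain form Mt3 was lower. Mt1 (chr8:94179082-94180327, plus strand) had 430.3, 512 and 849 CPM in Rik null and 224, 369.9 and 439 CPM in WT libraries. Of the 7 Rik null libraries 6 lay above every WT library, and the log2 fold change was 0.69 (SE 0.16, adjusted p = 0.00229, edgeR). Without Rik null 1, the highest library, it was 0.55 with all other settings kept. Mt2 lies on the same strand and ends 5513 bp before Mt1 starts (chr8:94172664-94173568). It had 19, 6, 6, 3, 22, 4 and 2 counts in Rik null 1 to 7 and 7, 12, 7, 6, 7, 0 and 0 counts in WT 1 to 7. These counts overlapped and were too few for a direction, and without a count filter the log2 fold change was 0.49 (SE 0.60, adjusted p = 0.614). Of the 588 exonic bases of Mt2, 432 (73.5%) are shared with Gm45774, a gene annotated on the other strand that had 0 to 9 counts itself. How reads in the shared stretch were counted is not given, so the level of Mt2 is uncertain. Mt3, a metallothionein of neurons and astrocytes that is not induced by metals in the way of Mt1, had 119, 131 and 163 CPM in Rik null and 132, 198 and 295 CPM in WT libraries. Its log2 fold change was -0.59 (SE 0.15, adjusted p = 0.00399, edgeR), the libraries overlapped, and the call was lost in labelled males alone (-0.40, adjusted p = 0.244, and -0.35, adjusted p = 0.452, without Rik null 4).

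The promoters of Mt1 and Mt2 are shown because both genes are known to respond to metals and to glucocorticoids. Capitals mark the core of the metallothionein response element, TGCACNC or TGCGCNC on either strand, to which Mtf1 binds, and in Mt1 also the glucocorticoid element searched as above, which is the first run of capitals. The windows are chr8:94178839-94179138 for Mt1 and chr8:94172368-94172667 for Mt2 (RefSeq, GRCm38.p6, plus strand), and no match overlaps another.
Mt1 promoter: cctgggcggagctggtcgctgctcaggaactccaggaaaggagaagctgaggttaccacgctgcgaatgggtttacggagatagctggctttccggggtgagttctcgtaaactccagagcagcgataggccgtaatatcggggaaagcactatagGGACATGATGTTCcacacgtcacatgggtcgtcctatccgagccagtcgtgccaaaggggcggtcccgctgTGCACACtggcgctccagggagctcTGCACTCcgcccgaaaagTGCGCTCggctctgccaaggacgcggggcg
Mt2 promoter: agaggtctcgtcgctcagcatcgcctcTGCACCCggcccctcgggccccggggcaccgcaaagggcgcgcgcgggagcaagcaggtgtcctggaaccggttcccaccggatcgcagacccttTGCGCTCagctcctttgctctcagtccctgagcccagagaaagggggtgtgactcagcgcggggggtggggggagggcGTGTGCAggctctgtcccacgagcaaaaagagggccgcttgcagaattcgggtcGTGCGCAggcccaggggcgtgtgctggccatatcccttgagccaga
Mt1 held 3 metal cores, starting at bases -23, 3 and 21 from the annotated start (counted as 1), and its glucocorticoid-type element started at base -94. Mt2 held 4 cores, starting at bases -223, -128, -50 and 5, and no such element. At least 1 core was held by 25.7% of RefSeq promoters, and 4 or more by 0.5175%. These are matches of letters, and binding was not measured.

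Levels per length, in FPKM, put the genes in a similar order in both genotypes. Mt1 was the most abundant, with a median of 408 FPKM in Rik null and 292 FPKM in WT. Sgk1 came next in Rik null brains, at 73.8 FPKM (range 57.6 to 105), above Tsc22d3 at 23.9 FPKM (19.6 to 41.5). In WT brains the pair stood the other way round, with Tsc22d3 at 30.9 FPKM (19.4 to 35.5) and Sgk1 at 19.7 FPKM (11.95 to 30.1), ranges that overlapped. Nr3c1 followed in each genotype, at 15.7 FPKM in Rik null and 17.4 FPKM in WT. Fkbp5 was at 10.6 FPKM in Rik null against 4.70 FPKM in WT, near Errfi1 at 12.2 and 9.48 FPKM and Zbtb16 at 7.37 and 4.98 FPKM. Plin4 (3.07 and 0.533 FPKM) and Hif3a (2.53 and 0.899 FPKM) were low throughout and their ranges overlapped within each genotype. Mt2 was listed at 0.555 FPKM in Rik null and 0.687 FPKM in WT.

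Within a genotype the same libraries were often the highest or lowest across these genes. Rik null 1 was the highest Rik null library for 7 of the 9 genes other than Mt2, and WT 5 the highest WT library for 8 of them. Among WT libraries, WT 3 was the lowest for 6 genes, and WT 3, 6 and 7 were the lowest of the 7 for Sgk1, Fkbp5, Plin4, Tsc22d3, Hif3a and Mt1. For Nr3c1 these same libraries were the highest, at 146, 148 and 142 CPM, with the other WT libraries at 122 to 136 CPM. WT 3, 6 and 7 also had the lowest summed markers of myelinating oligodendrocytes (17251, 16905 and 17124 CPM) and of astrocytes (4925, 5096 and 4932 CPM) among WT libraries, whose part in this was not tested. All 3 are labelled male, while WT 2, also labelled male, was not among them.

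**Figure D2:**
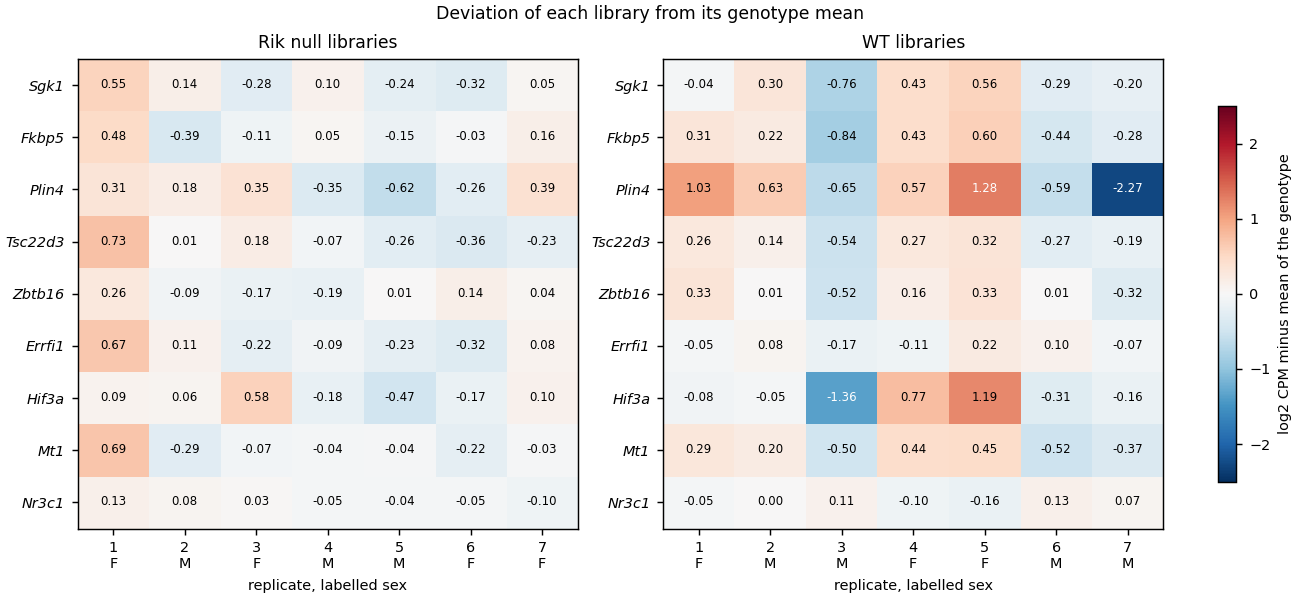
Log2 CPM of 9 genes in each library minus the mean of its genotype, for 7 Rik null libraries (left) and 7 WT libraries (right), with replicate number and labelled sex (F, M) below. Rik null 1 is above its genotype mean for every gene, and WT 3 is below it for every gene but Nr3c1.

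Correlations between the genes were computed over the 7 libraries of each genotype, for 90 pairs in both genotypes together, with exact permutation tests over all 5040 orders (two-sided) and Benjamini-Hochberg adjustment over the 90. Both labelled sexes entered each genotype without a sex term. In WT libraries Fkbp5, Tsc22d3, Zbtb16 and Mt1 were higher in every labelled female than in any labelled male, and Nr3c1 was lower. The part of sex in the WT correlations was not separated and was not tested. In WT brains Fkbp5 and Tsc22d3 were the closest pair (Pearson r = 0.99, exact p = 0.000198, the smallest the test allows for r, adjusted p = 0.00893, Spearman rho = 1.00, exact p = 0.000397), and r was 0.98 without the 2 libraries farthest from the median of Fkbp5. Sgk1 followed Fkbp5 in WT (r = 0.95, exact p = 0.00119, rho = 0.96 with exact p = 0.00278, adjusted p of r = 0.0134, and r = 0.86 without the 2 farthest). Sgk1 followed Tsc22d3 as well (r = 0.92, exact p = 0.00298, rho = 0.96 with exact p = 0.00278, adjusted p of r = 0.0268, and r = 0.79 without the 2 farthest). Fkbp5 ran against Nr3c1 in WT (r = -0.93, exact p = 0.00337, rho = -0.96 with exact p = 0.00278, adjusted p of r = 0.0276, and r = -0.95 without the 2 farthest).
In Rik null brains the pairs among Sgk1, Fkbp5 and Tsc22d3 did not pass. Fkbp5 and Tsc22d3 gave r = 0.56 (exact p = 0.196, rho = 0.21 with exact p = 0.662, adjusted p of r = 0.352, and r = -0.21 without the 2 farthest). Sgk1 and Fkbp5 gave r = 0.59 (exact p = 0.159, rho = 0.29 with exact p = 0.556, adjusted p of r = 0.332, and r = 0.01 without the 2 farthest). Sgk1 and Tsc22d3 gave r = 0.74 (exact p = 0.0538, rho = 0.64 with exact p = 0.139, adjusted p of r = 0.151, and r = -0.16 without the 2 farthest). That the genotypes differ in these correlations was not tested. The pairs that passed in Rik null brains were Sgk1 with Errfi1 (r = 0.96, exact p = 0.00278, rho = 0.93 with exact p = 0.00675, adjusted p of r = 0.0268, and r = 0.87 without the 2 farthest) and Plin4 with Hif3a (r = 0.86, exact p = 0.00694, rho = 0.96 with exact p = 0.00278, adjusted p of r = 0.0446, and r = 0.68 without the 2 farthest). Neither passed over the 6 libraries without Rik null 1 (r = 0.91, adjusted p = 0.118, and r = 0.88, adjusted p = 0.0855, permutation test). On the CPM scale Plin4 with Hif3a did not pass (r = 0.80, adjusted p = 0.0558).
In all, 17 pairs passed, 2 in Rik null and 15 in WT brains. The other 7 of WT that do not involve Mt1 were Sgk1 with Hif3a (r = 0.94, and 0.82 without the 2 farthest), Fkbp5 with Zbtb16 (0.88 and 0.92) and with Hif3a (0.90 and 0.77), Tsc22d3 with Zbtb16 (0.90 and 0.96), with Hif3a (0.86 and 0.64) and with Nr3c1 (-0.91 and -0.90), and Hif3a with Nr3c1 (-0.87 and -0.81). Their rho lay between 0.86 and 1.00 in size, with exact p of 0.000198 to 0.00853 for r and 0.000397 to 0.0238 for rho. The remaining 4 involve Mt1, whose WT levels fell into separate sets of 3 and 4 libraries with a gap of over 0.5 of their range, so no correlation is given for it there, nor for Mt2, which had such gaps in both genotypes. In Rik null brains Mt1 passed with no gene. With WT 4 left out no pair passed, with 6 WT libraries, while Fkbp5 and Tsc22d3 still gave r = 0.99 (exact p = 0.00139, adjusted p = 0.0625). In WT on the CPM scale Sgk1 with Tsc22d3 and Fkbp5 with Zbtb16 did not pass (adjusted p = 0.0558 for each, permutation test). Tsc22d3 with Hif3a did not pass there either (adjusted p = 0.0941). The rho of Zbtb16 with Fkbp5 and with Tsc22d3 in WT did not pass after adjustment (adjusted p = 0.107 for each, permutation test).

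In WT brains all 3 labelled females lay above all 4 labelled males for Fkbp5 (48.0 to 58.7 against 21.6 to 45.2 CPM), Tsc22d3 (149 to 155 against 85.6 to 136 CPM), Zbtb16 (29.6 to 33.4 against 18.5 to 26.7 CPM) and Mt1 (392 to 439 against 224 to 369.9 CPM). For Nr3c1 all 3 labelled females lay below all 4 labelled males (122 to 131 against 136 to 148 CPM). These genes were chosen after their values were seen, and the differences were not tested. In Rik null brains labelled females and males overlapped for each of these genes. Without Rik null 4 they still did for Tsc22d3, Zbtb16, Mt1 and Nr3c1. For Fkbp5 the remaining labelled males (78.7 and 93.1 CPM) lay below every labelled female (95.7 CPM or more). The interaction of genotype and sex passed for 0 of 16882 genes (edgeR, 984 at an unadjusted p of 0.05). It was -0.50 for Sgk1 (log2 fold change in females minus that in males, SE 0.30, adjusted p = 0.847) and -0.40 for Mt1 (SE 0.25, adjusted p = 0.861). Its size was largest for Plin4 (-0.93, SE 0.47, adjusted p = 0.832) and Hif3a (-0.76, SE 0.39, adjusted p = 0.832). It was above 0 for Errfi1 (0.13) and Nr3c1 (0.19). Without the library labelled male Rik null 4 the interaction again passed for 0 genes (770 at an unadjusted p of 0.05). It was then -0.45 for Sgk1, -0.36 for Mt1, -0.99 for Plin4 and -0.76 for Hif3a. In females alone 4 of the 7 genes stayed higher, and Zbtb16 (log2 fold change 0.35, adjusted p = 0.0648), Errfi1 (0.47, adjusted p = 0.116) and Mt1 (0.45, adjusted p = 0.0747) did not pass. In labelled males alone the 7 were all higher, and 6 of them without Rik null 4, when Errfi1 did not pass (0.36, adjusted p = 0.109).

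The other glucocorticoid-induced genes of a list of 22 were then examined, to set the 7 higher genes beside others known for the same hormone response. This list, like those that follow, was chosen with earlier results of these data known, so its shares are a description and not separate support. Rik null brains had higher levels of 14 of the 22 and a lower level of 1, against 16.5% and 17.9% of all genes tested. The median log2 fold change was 0.63, against 0.00 over all genes tested. The cell cycle inhibitor gene Cdkn1a, which p53 also induces, had 64.7 to 164 CPM in Rik null against 13.3 to 28.9 CPM in WT libraries (log2 fold change 2.05, SE 0.21, adjusted p = 2.12e-07, edgeR). Dusp1, a phosphatase that switches off MAP kinases, had 31.2 to 48.3 CPM against 14.5 to 23.9 CPM in WT (0.95, adjusted p = 3.51e-06). Neither overlapped between genotypes. The arrestin-domain gene Arrdc2 (log2 fold change 1.41, adjusted p = 1.60e-05), the clock gene Per1 (0.70, adjusted p = 1.86e-05) and the transcription factor gene Klf9 (0.29, adjusted p = 0.00223) also rose without overlap. Klf9 did not pass in females alone (0.14, adjusted p = 0.248). Gpd1, an enzyme of glycerol phosphate metabolism, was the gene that fell (log2 fold change -0.34, adjusted p = 0.0127), a call lost in labelled males alone (-0.12, adjusted p = 0.604, and -0.07, adjusted p = 0.825, without Rik null 4). Pdk4, Arl4d, Fam107a, Rasd1, Mertk, Pik3r1 and Glul did not pass, with log2 fold changes between -0.05 and 0.32.

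**Figure D3:**
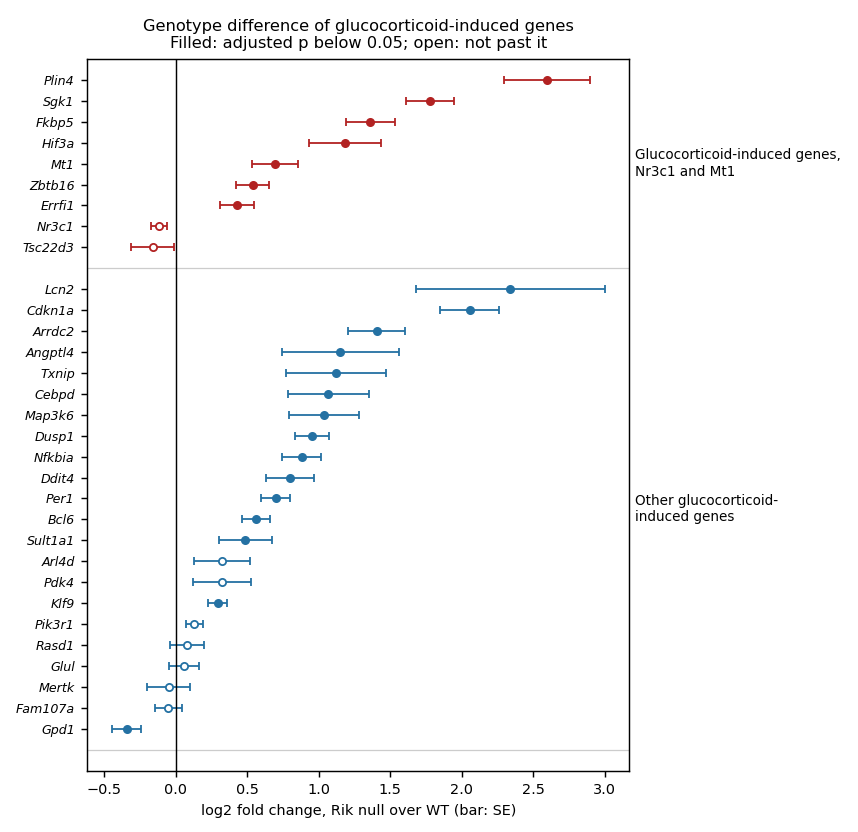
Log2 fold change of Rik null over WT with its SE for the 9 tested genes (top) and the list of 22 other glucocorticoid-induced genes (bottom), with filled points past an adjusted p of 0.05 and open points not. Plin4 stands at 2.59 and Tsc22d3 at -0.16 in the upper set, and Lcn2 at 2.34 and Gpd1 at -0.34 in the lower set. Lcn2 was low, at means of 1.66 CPM in Rik null and 0.32 CPM in WT (SE 0.66), and its libraries overlapped.

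Partners of the receptor and steps that set hormone supply were compared next. Of 12 tested genes of that list 5 were lower and 1 was higher, against 17.9% and 16.5% of all genes tested, with a median log2 fold change of -0.08. The lower genes were chaperones and co-chaperones of the receptor complex, namely Stip1 (log2 fold change -0.37, SE 0.05, adjusted p = 1.25e-05), Ptges3 (-0.30, adjusted p = 0.00191), Hsp90aa1 (-0.20, adjusted p = 0.00593), Fkbp4 (-0.32, adjusted p = 0.0103) and Hspa8 (-0.12, adjusted p = 0.0273). Stip1, which hands clients to Hsp90, had 135 to 148 CPM in Rik null and 170 to 200 CPM in WT libraries, with no overlap (all tests edgeR). Fkbp4, which acts opposite to Fkbp5 on the receptor, had 98.9 to 130 CPM in Rik null and 118 to 189 CPM in WT libraries, which overlapped. In labelled males alone neither Fkbp4 (-0.21, adjusted p = 0.193, and -0.21, adjusted p = 0.318, without Rik null 4) nor Hsp90aa1 (-0.10, adjusted p = 0.327, and -0.10, adjusted p = 0.450, without Rik null 4) passed, and Ptges3 did not pass in females alone (-0.30, adjusted p = 0.0778) or in labelled males without Rik null 4 (-0.35, adjusted p = 0.0614). The coactivator gene Ncoa1 was higher by 0.16 (adjusted p = 0.0257, edgeR) and passed under 18 of 28 alternatives. The call was lost with any of Rik null 3, Rik null 4, WT 1, WT 3 or WT 5 left out (adjusted p = 0.0506 to 0.0580). Ncoa1 also did not pass in females alone (adjusted p = 0.191) or in labelled males alone (adjusted p = 0.214, and 0.491 without Rik null 4). The mineralocorticoid receptor gene Nr3c2, which binds the same hormone, had 37.9 to 47.1 CPM in Rik null and 37.3 to 49.4 CPM in WT libraries (log2 fold change 0.02, SE 0.07, adjusted p = 0.869). Hsd11b1, which regenerates active corticosterone, had 27.3 to 35.3 CPM in Rik null and 23.2 to 39.7 CPM in WT libraries (-0.04, SE 0.09, adjusted p = 0.802).

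Peptide genes of the stress axis were compared together with the genes of Crh receptors and of a Crh-binding protein. Crh and Oxt were low, at means of 4.83 and 4.10 CPM in Rik null and 6.75 and 6.36 CPM in WT. Of 7 tested, 3 were lower and none was higher, against 17.9% and 16.5% of all genes tested, and the calls did not hold under all settings. Crh, the hypothalamic releasing hormone, had 3.32, 4.66 and 6.42 CPM in Rik null and 4.50, 6.28 and 9.17 CPM in WT libraries (log2 fold change -0.48, SE 0.18, adjusted p = 0.0379, edgeR). The libraries overlapped, and the call was lost when any of Rik null 1, 2, 3 or 5 or WT 1, 2 or 6 was left out (adjusted p = 0.0567 to 0.0909), so that it passed under 15 of 28 alternatives. Its receptor gene Crhr1, at -0.25 on the log2 scale (adjusted p = 0.0462), passed under 9 of 28 alternatives. Pomc, the corticotropin precursor, had 0.361 to 2.76 CPM in Rik null and 1.43 to 270 CPM in WT libraries, and its log2 fold change of -4.46 (adjusted p = 0.00430) rested on WT 4, without which it was -0.45 (adjusted p = 0.340).

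Zinc handling was examined because metals also induce metallothioneins. Levels of 10 of 22 tested genes were lower and that of 1 was higher in Rik null brains, against 17.9% and 16.5% of all genes tested. The median log2 fold change was -0.14. Slc30a10, an exporter of the SLC30 family known to carry manganese, had 9.17 to 12.9 CPM in Rik null and 14.2 to 23.4 CPM in WT libraries, with no overlap (log2 fold change -0.79, SE 0.11, adjusted p = 1.11e-05, edgeR). The zinc importer gene Slc39a12, known from astrocytes, had a log2 fold change of -0.58 with an SE of 0.07 (adjusted p = 5.30e-06), at 58.4 to 74.7 CPM in Rik null and 84.4 to 116 CPM in WT libraries, again without overlap. Slc30a4, a transporter of zinc into vesicles, was the gene that rose, at 105 to 154 CPM in Rik null and 83.5 to 98.7 CPM in WT libraries (0.42, SE 0.07, adjusted p = 0.000147). Slc30a1, a zinc exporter that Mtf1 induces, had a log2 fold change of -0.31 and an SE of 0.10 (adjusted p = 0.0206), with 26.9 to 46.8 CPM in Rik null and 36.6 to 48.1 CPM in WT libraries. That call was lost without Rik null 6 (adjusted p = 0.0523), with library size alone (adjusted p = 0.0587) and in either labelled sex alone, with or without Rik null 4. Slc30a6, at -0.37 (adjusted p = 0.00622), passed in neither labelled sex alone, at a similar size (-0.39, adjusted p = 0.117, in females, -0.37, adjusted p = 0.108, in males, and -0.35, adjusted p = 0.246, in males without Rik null 4). Mtf1, the metal sensor, had 29.0 to 37.8 CPM in Rik null and 26.6 to 37.5 CPM in WT libraries (log2 fold change 0.07, SE 0.08, adjusted p = 0.515).

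**Figure D4:**
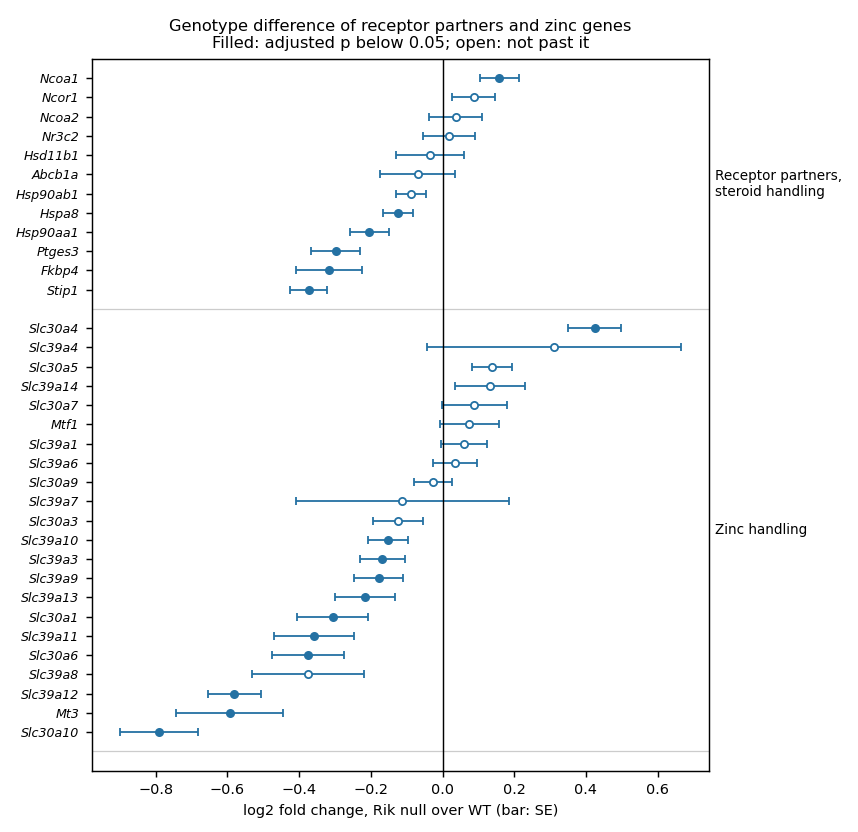
Log2 fold change of Rik null over WT with its SE for 12 receptor partner and steroid handling genes (top) and 22 zinc handling genes (bottom), with filled points past an adjusted p of 0.05 and open points not. Stip1 is the lowest of the upper set at -0.37, and Slc30a10 and Slc30a4 mark the ends of the lower set among called genes, at -0.79 and 0.42.

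Genes with the most similar pattern were found from deviations of log2 CPM from the genotype mean over the 14 libraries, as a description without a test. For the mean of Sgk1, Fkbp5 and Tsc22d3 these included the serine protease gene Htra1 (r = 0.96) and the lipase gene Pnpla2 (r = 0.94). For Mt1 they were Htra1 (r = 0.97), the transcription factor gene Cebpa (r = 0.96) and the unnamed gene model Gm7331 (r = 0.95). Between genotypes Pnpla2 was higher by 0.72 (adjusted p = 0.00180, edgeR), while Htra1 (0.33, adjusted p = 0.0906), Cebpa (-0.18, adjusted p = 0.502) and Gm7331 (-0.24, adjusted p = 0.416) did not pass.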

How the data were processed

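RNA was purified from brains kept in RNAlater, and a company made and sequenced the libraries and ran its standard analysis. Not given in the sources used here are the aligner, the counting tool and the strand setting. The submitters' processing notes name GRCm38, but 1537 of 52125 shared identifiers had the GENCODE M21 start, so positions were taken from M21 by identifier. Raw counts for each gene were deposited, with the authors' FPKM (counts per gene length and library) and gene lengths. FPKM were used for no test. Deposited columns of genotype means, log2 fold changes and p-values of their DESeq2 comparison were not used.

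Counts were tested with edgeR 4.0.16 (R 4.3.3) by glmQLFTest with TMM scaling and filterByExpr, which left 16882 genes, with genotype as the only term and Benjamini-Hochberg adjustment at 0.05. The SE is the log2 fold change over the square root of F. CPM are counts per TMM-scaled library size. Correlations used log2 CPM (prior count 2). The fit was tested on simulated data.

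The members, lists and rules were chosen with earlier results of these data known. All 10 members are described, and from each list the up to 4 genes of smallest p in each direction, plus Per1, Klf9, Nr3c2, Hsd11b1, Fkbp4, Crh, Pomc, Mt3, Mtf1 and Slc30a1, were named. Hspa8, Lcn2, Hdgfl2 and the genes listed as not called were named after their values were seen. Mt2 did not pass the filter, so the pattern of Mt1 alone was matched. A further gene of similar pattern is not reported here. Each library is 1 animal, and no 2 libraries were duplicates (smallest chi-square per degree of freedom 4.47). Alternatives were a DESeq2 1.42.0 Wald test, scaling by RLE or by library size alone, a fit without mitochondrial genes, no count filter, a filter of 1 CPM in 7 libraries, a sex term, a replicate block, robust fitting, each library left out, Rik null 1 and WT 4 left out, and each sex alone. Sex results without the library labelled male Rik null 4 were added after seeing the data.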

Additional observations from a re-analysis of the deposited data

Results flagged for a closer look

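Among the 20 sets of 7 libraries formed by 10 genes and 2 genotypes, 3 held a library far from the other 6, by a gap above the critical value of Dixon's test, which chance exceeds in about 1 in 20 sets. All 3 were Rik null 1, a library that also stood apart over all genes. It had 849 CPM of Mt1, with the next highest Rik null library at 516 CPM. It had 182 CPM of Tsc22d3, with the next at 125 CPM, and 74.8 CPM of Errfi1, with the next at 50.7 CPM. The gap took 0.794 of the range for Mt1, 0.593 for Tsc22d3 and 0.648 for Errfi1.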

How the results depend on the processing

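Of the 7 higher genes, Sgk1, Fkbp5, Plin4 and Hif3a passed under all 28 alternatives, with log2 fold changes of 1.504 to 2.01, 1.10 to 1.55, 2.14 to 3.15 and 0.79 to 1.56. Zbtb16 and Mt1 passed under 27 and Errfi1 under 26. In females alone 4 genes were higher, and Zbtb16 (0.35), Errfi1 (0.47) and Mt1 (0.45) did not pass, nor did Errfi1 (0.36) in labelled males without Rik null 4. Without Rik null 1 and WT 4 Nr3c1 was called (-0.16), so 1 of the 10 genes was lower. Over all genes, 1282 were higher and 1592 lower in females alone, 1241 and 1496 in labelled males alone, and 598 and 816 in labelled males without Rik null 4, against 2783 and 3027. These fits hold fewer libraries. With library size alone 3890 were higher and 2208 lower, against the same 2783 and 3027, and the median of all genes was 0.07. Without a count filter 671 genes were higher at least 2-fold, with 210 in labelled males alone and 143 without Rik null 4, against 323. Near 0, Hsd11b1 changed sign with library size alone (0.036), in labelled males alone (0.047) and without Rik null 4 there (0.062), and ran from -0.0996 to 0.0252 with single libraries left out, while Nr3c2 ran from -0.0121 to 0.0567. Of 90 pairs, 17 were correlated, 13 on the CPM scale, 12 without Rik null 1 (all of them in WT) and 0 without WT 4, when 6 WT libraries allow fewer orders.

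No pairing by replicate number was assumed. Correlations of same-numbered deviations ran from -0.06 to 0.14, which is too small to show pairing and cannot exclude it. With the replicate block Sgk1 had 1.81 and Mt1 0.71, 2898 genes were higher and 3068 lower, and the 7 genes were called, while Pomc, Crh and Crhr1 did not pass. Of 7 numbers, 3 gave the best match. At this depth Mt2, at 0 to 22 counts a library, gave no direction.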
